A study of Mus musculus with 12 samples.

Results

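Scavenger receptors and C-type lectins are pattern-recognition receptors through which macrophages bind microbes, modified lipids, haemoglobin complexes and dying cells. Of 10 such genes chosen by name (Cd14, Cd36, Cd163, Marco, Mrc1, Msr1, Clec4e, Clec4n, Clec5a and Clec7a), the count table held 7, among its 545 immune genes. Mrc1, Clec4n and Clec7a were not analysed here. Microglia, the resident macrophages of the brain tissue itself, were sorted from the hippocampus of male BALB/c mice (Balbc in the labels) raised under control conditions, at postnatal day 14 (P14, n = 6) or postnatal day 28 (P28, n = 6), each pup from a different litter. No allele, transgene or agent is named for either age, and animals exposed to early life stress, the subject of the wider study, were not analysed here. RNA was counted with the nCounter mouse immune panel, in which a fluorescent barcode is counted for each captured target molecule. The comparison asks how these receptor genes differ in hippocampal microglia between the ages, and how the border macrophage genes Cd163 and Marco compare with the others.

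CD14 is a lipid-anchored protein that hands bacterial lipopolysaccharide to the TLR4 and MD-2 complex. CD36, a class B scavenger receptor, takes up oxidised lipids and fatty acids, while MSR1 and MARCO are class A scavenger receptors for modified lipoproteins and bacteria. CD163 takes up haemoglobin bound to haptoglobin and marks macrophages of the brain's borders (the perivascular space and meninges), where the mannose receptor MRC1 is also used as a marker. CLEC5A (MDL-1) and CLEC4E (Mincle) are C-type lectins that signal through the adaptors DAP12 (gene Tyrobp), DAP10 or the Fc receptor gamma chain (gene Fcer1g) to the kinase Syk and the adaptor CARD9.

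Only Cd14, Clec5a and Cd36 were above background often enough to be compared between the ages, and none of the 3 passed the test. Cd14 and Clec5a were far above background in all 12 samples, and Cd36 lay close to it. Cd163, Marco, Msr1 and Clec4e stayed at the level of the negative-control probes at both ages. Scaled to reference genes, the counts of Clec5a and Cd14 at P14 were split. Samples 4 and 5 had more Clec5a and less Cd14 than the other 4 P14 samples. In raw counts Cd14 was lower in both, while Clec5a was 891 and 567 against 619 to 854, so sample 5 was lowest. Without samples 4 and 5, Clec5a was higher at P28 by a log2 fold change of 0.69 ± 0.09. With positive controls alone it was -0.32, on which scale the median of all genes was -1.07. Samples 4 and 5 hold the highest scaled P14 values of Clec5a itself, so the fold change of 0.69 is a description.

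Total raw counts over the 545 genes ran from 356398 to 1316430 per sample at P14 and from 1025196 to 1534665 at P28. P14 samples 4 and 5 had the lowest totals, 772723 and 356398. The positive-control probes, spiked in at fixed amounts, summed to between 14924 and 20649 at P14 and between 36530 and 41574 at P28, so the ages did not overlap in the yield of the lanes, and age and lane yield cannot be told apart. The defining microglial genes on the panel, among them Csf1r, Cx3cr1, Itgam and C1qa, were above background in all 12 samples. Among 13 microglial genes, Trem2 and Runx1 rose, Emr1 fell and the other 10 did not pass; Trem2 and Runx1 were below 0 with positive controls alone. Levels below are raw counts divided by a factor from 6 reference genes (scaled counts), and in bulk RNA of sorted cells fewer cells of a type and less RNA per cell cannot be told apart.

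The lectin genes Clec5a and Clec4e both lie on mouse chromosome 6 and differ in detection: Clec5a was above background in 12 of 12 samples and Clec4e in 0. The 250 bases before the annotated start of each gene are shown to set their regulatory sequence beside that difference (RefSeq, GRCm38.p6, minus strand of both genes, 5′ to 3′). Capitals mark GAGGAA, the core of the motif of the myeloid factor PU.1, or its reverse complement TTCCTC.
Clec5a, chr6:40585806-40586055: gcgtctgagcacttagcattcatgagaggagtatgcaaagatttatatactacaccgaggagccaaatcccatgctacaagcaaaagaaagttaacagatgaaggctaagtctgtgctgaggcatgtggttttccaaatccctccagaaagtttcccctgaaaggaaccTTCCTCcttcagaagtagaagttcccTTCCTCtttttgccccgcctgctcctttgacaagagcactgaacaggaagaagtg
Clec4e, chr6:123289872-123290121: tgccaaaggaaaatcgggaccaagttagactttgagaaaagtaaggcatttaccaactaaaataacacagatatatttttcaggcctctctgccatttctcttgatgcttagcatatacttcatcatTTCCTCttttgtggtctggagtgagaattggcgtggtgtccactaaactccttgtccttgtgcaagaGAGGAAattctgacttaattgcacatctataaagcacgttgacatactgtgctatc
Each stretch held 2 matches, searched on both strands. Among 32851 promoter stretches of the same length in the RefSeq table, 23.3% held at least 1 match and 3.54% held 2 or more. Promoters of 5 genes of the set were found there, of which Marco had 1 match and Cd36 and Cd163 had 0. A match is a stretch of letters and was not tested as a binding site.

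Detection was read against each lane's own background, the mean plus 2 SD of its 8 negative-control probes, which lay between 12.9 and 33.4 raw counts. Cd163 gave 7 to 18 raw counts at P14 and 11 to 16 at P28, and exceeded the lane background in 1 of 12 samples, P14 sample 25, with 18 counts against a background of 15.5. Its counts over all samples summed to 145, fewer than those of 3 of the 8 negative probes. Marco gave 6 to 16 raw counts at P14 and 5 to 18 at P28, was above background in 0 of 12 samples, and summed to 137, fewer than 5 of the negative probes. Both border macrophage genes thus sat within the range of probes that have no target in the sample.

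Msr1 and Clec4e, which are not border macrophage genes by the grouping used, behaved alike in this respect. Msr1 gave 6 to 19 raw counts at P14 and 6 to 22 at P28 and was above background in 1 of 12 samples, again P14 sample 25, with 19 counts. Clec4e gave 3 to 8 raw counts at P14 and 1 to 11 at P28, was above background in 0 of 12 samples, and its sum of 75 was below that of each of the 8 negative probes. P14 sample 25 had the lowest background on the scaled scale, 13.9 scaled counts against 17.6 to 32.0 in the other 11 samples. For these 4 genes the data give an upper limit and not a level: in scaled counts, the lane backgrounds ran from 13.9 to 32.0 at P14 and from 23.2 to 28.7 at P28. No fold change between the ages is given for them, since counts at background at both ages cannot show one.

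**Figure D1:**
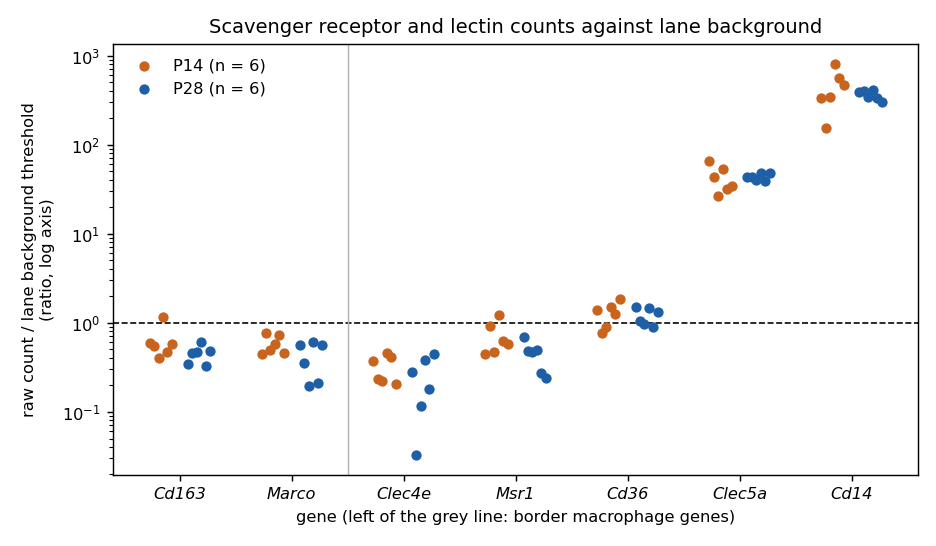
Raw count divided by the lane background (mean plus 2 SD of the lane's 8 negative probes) for 7 genes, on a log axis, with 1 point for each of 6 P14 (orange) and 6 P28 (blue) samples; the dashed line marks a ratio of 1. Cd14 lay between 154 and 815 times its background and Clec5a between 26.7 and 65.9 times, Cd36 straddled the line at 0.77 to 1.85 times, and Cd163, Marco, Msr1 and Clec4e lay below it in every sample but P14 sample 25, where Cd163 and Msr1 lay above.

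Of all 545 genes, 366 were above background in at least 40% of samples. Set against the rest, 0 of the 2 border macrophage genes in the table met that rule, against 3 of the 5 others. This is a description of few probes, which differ in how well they capture their target, and no test was made of it. Further genes of border macrophages and monocytes were read from a list that excluded the set. Of its 13 genes on the panel, 8 were above background often enough. The lectin Cd209g, the chemokine Ccl8, and the monocyte and neutrophil genes S100a8 and S100a9 were among those that were not. Of the 8, Ccl24, Cd9 and Ccl6 rose, Itgal fell and 4 did not pass (Itgal was above background in 6 P14 and 0 P28 samples, so it counted as measured only through P14), with a median log2 fold change of 0.48 against 0.0026 for all 366 measured genes. Over all 366 genes 16.7% rose and 13.9% fell. Scaled without Polr1b, 1 of the 8 rose and 2 fell, and with positive controls alone 1 rose and 2 fell. Cd9 is a tetraspanin that microglia also express. It rose from 1465.5 ± 357 to 2128 ± 254 scaled counts (edgeR log2 fold change 0.54 ± 0.16, adjusted p = 0.0183), a call lost without Polr1b (0.41) and a value of -0.25 with positive controls alone. Summed over those 8 genes, the level lay between 1380 and 2490 scaled counts at P14 and between 2975 and 3868 at P28 and the ages did not overlap. Most of that sum was Cd9, at 930 to 1863 scaled counts at P14 and 1869 to 2572 at P28. The part of such cells in the other results was not tested.

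None of the 3 genes that could be tested changed with age in edgeR's quasi-likelihood fit over all 366 measured genes at an FDR of 0.05. The count was 0 in either direction, and without adjustment 0 of the 3 reached p under 0.05, against 158 of all genes. Over all 366 genes 112 passed, 30.6%, with 16.7% higher and 13.9% lower at P28. That split, 61 higher and 51 lower, was 93 and 36 with the authors' factors, 89 and 42 with all 14 reference genes, 50 and 74 without Polr1b, 51 and 96 with total counts and 8 and 127 with positive controls alone. Scaled counts of the ages did not overlap for 0 of the 3 receptors, against 20.8% of all genes. DESeq2 and limma also called 0 of the 3. Their median log2 fold change was 0.20, against 0.0026 for all measured genes.

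Clec5a, the DAP12-coupled lectin, stood at 1161, 1402, 715, 750, 596 and 717 scaled counts in P14 samples 4, 5, 16, 25, 61 and 81. At P28 it stood at 1013, 1149, 1211, 1055, 1072 and 1217 scaled counts in samples 118, 134, 135, 119, 137 and 138. P14 samples 4 and 5 thus reached or passed the P28 range, while the other 4 P14 samples all lay below every P28 sample. That split also held in the authors' scaled values, at 1251 and 1500 in samples 4 and 5 against 600 to 766 in the other P14 samples. Those at P28 were 1115 to 1397. It did not hold in unscaled counts. In raw counts sample 4 was the highest P14 sample, at 891, and sample 5 the lowest, at 567, against 619 to 854 in the others. The mean was 890 ± 317 scaled counts in the P14 samples and 1120 ± 85.5 in the P28 samples (SD, n = 6 per age), with a log2 fold change of 0.34 ± 0.19. The adjusted p was 0.189 by edgeR, and the 95% interval, -0.07 to 0.74, includes no change and a rise of up to 0.74. Leaving out P14 sample 5 alone gave 0.51 ± 0.15 (edgeR adjusted p = 0.0179), and leaving out P14 samples 4 and 5 gave 0.69 ± 0.09 (edgeR adjusted p = 8.49e-05, 95% interval 0.48 to 0.89). The samples left out were the 2 highest of P14 for Clec5a in scaled counts and were chosen with these data known. That p and interval thus depend on the outcome and are no independent support. In that smaller fit 43.2% of the 366 genes passed, with 18.6% of the 366 higher and 24.6% lower. Without both samples the value was 0.59 when scaled to total counts, 0.83 with all 14 reference genes and -0.32 with positive controls alone, on which the median of all genes was -1.07. In the authors' deposited table the ratio of P28 to P14 for Clec5a is 1.36, with a p-value of 0.0602.

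Cd14, the lipopolysaccharide co-receptor, showed the opposite split at P14. It stood at 5912, 4934, 9135, 11330, 10552 and 9868 scaled counts in P14 samples 4, 5, 16, 25, 61 and 81. In the P28 samples, in the order 118, 134, 135, 119, 137 and 138, it stood at 9153, 9867, 10300, 9664, 9037 and 7557 scaled counts. P14 samples 4 and 5 were the lowest of all 12, and the other 4 P14 samples overlapped the P28 range. The means were 8622 ± 2601 and 9263 ± 957 scaled counts (SD, n = 6 each), and the log2 fold change of 0.10 ± 0.18 did not pass (edgeR adjusted p = 0.706, 95% interval -0.29 to 0.50). Leaving out P14 samples 4 and 5 turned it to -0.14 ± 0.10 (edgeR adjusted p = 0.26), and leaving out sample 5 alone to -0.015 ± 0.15 (edgeR adjusted p = 0.948). The authors' deposited table gives a ratio of 1.18 with a p-value of 0.187.

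The ratio of Clec5a to Cd14 within a sample does not depend on any scaling. It was 19.6% and 28.4% in P14 samples 4 and 5, 5.65% to 7.83% in the other 4 P14 samples and 10.9% to 16.1% at P28. The 3 sets of samples did not overlap, which is a description, since samples 4 and 5 were singled out on these data. The mean ratio was 12.6% ± 9.33 in the P14 samples and 12.2% ± 1.94 in the P28 samples (SD, n = 6 per age), and so does not show that pattern.

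**Figure D2:**
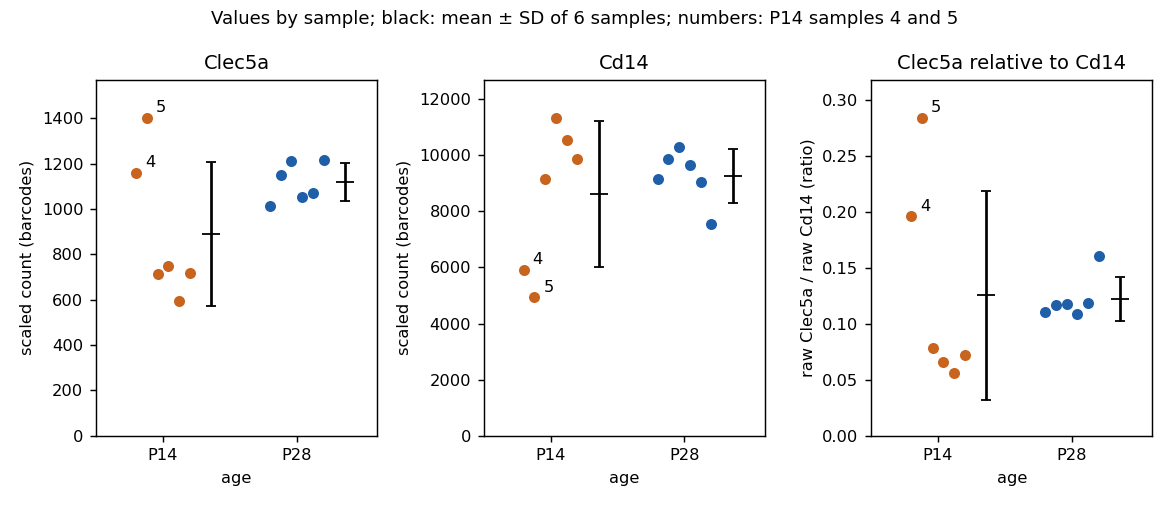
Scaled counts of Clec5a (left) and Cd14 (middle) and the raw ratio of Clec5a to Cd14 (right) by age, with 1 point per sample and black bars for mean ± SD of 6 samples. P14 samples 4 and 5, numbered, were the highest P14 samples for Clec5a and the lowest for Cd14, with ratios of 0.196 and 0.284 against 0.0565 to 0.0783 in the other P14 samples.

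Other measures moved with those samples. Beside their low totals, P14 samples 4 and 5 had the highest positive-control sums at P14, 20161 and 20649 against 14924 to 18796 in the other 4. Clec5a is also known from neutrophils and monocytes, so markers of those cells were read in the same samples. The 4 measured genes of the neutrophil list (Cxcr2, Csf3r, Ltf and Ccr3, of 7 in the table) summed to 6688 and 8669 scaled counts in samples 4 and 5, against 2875 to 3720 in the other P14 samples and 4166 to 8248 at P28. Csf3r, the receptor for granulocyte colony-stimulating factor, made up nearly all of that sum, at 6598 and 8602 scaled counts in samples 4 and 5. The sum is thus mainly the level of 1 gene and was not read as neutrophil content. The neutrophil granule genes S100a8, S100a9 and Camp were at background in at least 10 of 12 samples each. In sample 4, S100a8 at 20.9 and Camp at 22.2 scaled counts lay above the lane background of 17.6, while in sample 5 both lay below it, at 14.8 and 17.3 against 32.0. S100a9 stood at 6.52 and 7.42 scaled counts in samples 4 and 5 and at 3.85 to 5.40 in the other P14 samples, all below background. The scale factors were 0.77 and 0.40 in samples 4 and 5 and 1.04 to 1.19 in the others. Dividing background counts by smaller factors raises them, so these values show no difference in S100a9. The 8 genes of border macrophages and monocytes summed to 1624 and 1380 scaled counts in samples 4 and 5, below the 2055 to 2490 of the other P14 samples. Cd9 made up most of this, at 1155 and 930 against 1491 to 1863, while Fn1, the fibronectin gene, stood at 53.4 and 42.0 against 25.1 to 46.6. The part of depth, lane yield or these other genes in the split of Clec5a and Cd14 was not tested.

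Cd36, the class B scavenger receptor, lay near the limit of detection. Its scaled counts at P14 were 24.8, 24.7, 24.3, 20.7, 23.1 and 38.8 in samples 4, 5, 16, 25, 61 and 81. Those at P28 were 34.5, 28.0, 36.2, 25.2, 24.3 and 33.4 in samples 118, 134, 135, 119, 137 and 138. The ages overlapped throughout, and P14 sample 81 held the highest value of all. Cd36 was above background in 4 of 6 samples at each age, with means of 26.1 ± 6.44 and 30.3 ± 5.09 scaled counts (SD, n = 6 each). The log2 fold change of 0.20 ± 0.17 did not pass (edgeR adjusted p = 0.421, 95% interval -0.17 to 0.58), and without P14 sample 81 it was 0.37 ± 0.15 (edgeR adjusted p = 0.0822). Raw counts ran from 10, with an exact Poisson 95% interval of 4.80 to 18.4, to 48, with an interval of 35.4 to 63.6; these intervals cover counting error only, since PCR can copy 1 molecule many times. For Cd36 the authors' deposited table gives a ratio of 1.27 and a p-value of 0.0729.

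**Figure D3:**
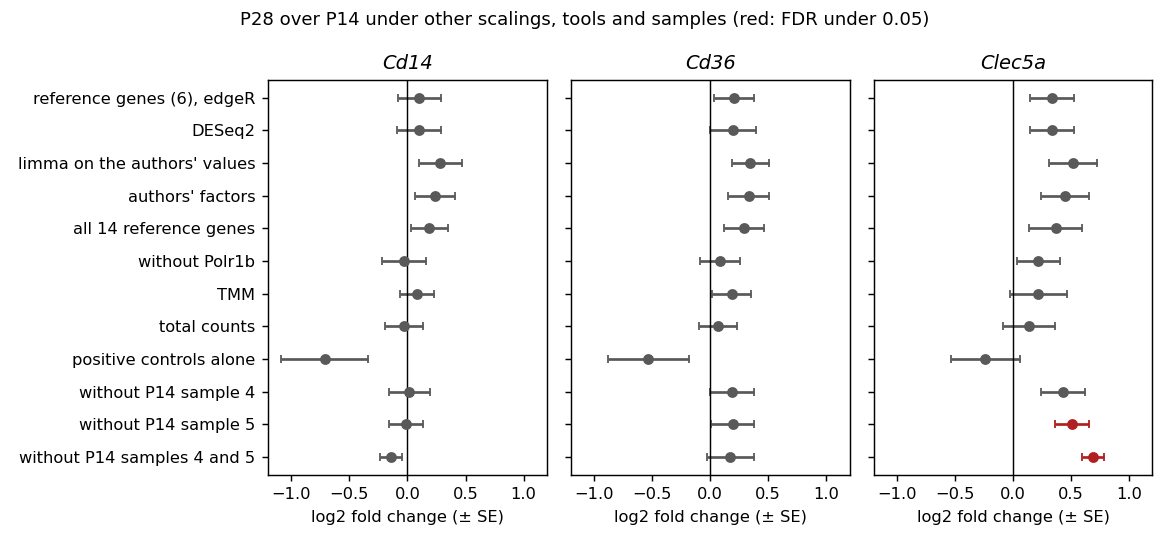
Log2 fold change of P28 over P14 with its SE for Cd14, Cd36 and Clec5a under the main fit (top) and 11 other scalings, tools or sample sets; red points passed an FDR of 0.05. Clec5a passed only without P14 sample 5 or without P14 samples 4 and 5, Cd14 lay on both sides of 0, and all 3 genes were below 0 with positive controls alone, where the median of all genes was -0.74.

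Genes whose profile over the 12 samples was nearest to each receptor's were found by the root mean square difference of log2 scaled counts, each profile centred on its own mean. Nearest to Cd14 was Ptafr, the receptor for platelet-activating factor, at 0.12, against a median of 0.42 over all measured genes. Ptafr stood at 3349 and 2582 scaled counts in P14 samples 4 and 5 and at 6450 to 6696 in the other P14 samples, a split in the same direction as that of Cd14. Nearest to Clec5a were Cd81, a tetraspanin, at 0.18, and Tnfrsf13b, the receptor TACI, at 0.21, against a median of 0.56. Cd81 stood at 97926 and 85116 scaled counts in P14 samples 4 and 5, 55623 to 72403 in the other P14 samples and 77415 to 116518 at P28. Cd36 had Ikzf1, the transcription factor Ikaros, at 0.21, and Batf3 at 0.22 nearest to it, against a median of 0.42. Cd36 lay near background, and Ikzf1 varied little, at 2313 to 2658 scaled counts at P28. Their nearness was thus not read as a shared profile. None of these 5 genes passed the test between the ages over all 12 samples. Without P14 samples 4 and 5, 3 of them passed in edgeR: Cd81 (0.55, adjusted p = 0.00355), Tnfrsf13b (0.66, adjusted p = 0.0148) and Ptafr (-0.31, adjusted p = 0.00755). In that smaller fit 43.2% of all 366 genes passed. The 3 genes were picked for profiles near those of Clec5a or Cd14 over the same 12 samples. They thus share the split in samples 4 and 5, and their calls are no independent support.

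The partners through which these receptors signal were taken from lists that excluded the set. Of 10 measured genes of the lipopolysaccharide receptor complex and the Toll-like receptor partners of CD14 and CD36, 0 rose, 1 fell and 9 did not pass, with a median log2 fold change of -0.03. The gene was Ly96, which encodes MD-2, the subunit that binds lipopolysaccharide on TLR4: it fell from 86.8 ± 18.1 to 60.1 ± 14.9 scaled counts (-0.53 ± 0.19, edgeR adjusted p = 0.0462). That call was lost in 12 of 28 alternatives, 7 of which left out a single sample (P14 sample 16, 61 or 81, or P28 sample 119, 134, 135 or 138), with -0.53 to -0.45. Tlr4 itself was 2798 ± 504 at P14 and 2994 ± 203 at P28 (0.10 ± 0.12), and Tlr2, which works with CD14 and CD36, was 45.7 ± 12.1 and 41.5 ± 7.44 (-0.14 ± 0.18); neither passed. Scaled to total counts 0 of the 10 were higher and 3 lower, and with positive controls alone 0 were higher and 4 lower. Over all 366 genes in the main fit 16.7% rose, 13.9% fell and the median was 0.0026.

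Of 11 measured genes of C-type lectin signalling 2 rose, 4 fell and 5 did not pass, with a median of 0.04. Over all 366 genes 16.7% rose, 13.9% fell and the median was 0.0026. In this list 3 rose and 3 fell with the authors' factors, and 0 rose and 4 fell with positive controls alone. Card9, the adaptor below Syk, fell from 8667 ± 825 to 6508 ± 946 scaled counts (-0.41 ± 0.11, edgeR adjusted p = 0.0112), a call lost with the authors' factors (-0.29, edgeR adjusted p = 0.0734) and with limma on the authors' values (-0.30). Fcer1g, Nfkb1 and Relb were the others that fell, by -1.07 ± 0.10, -0.68 ± 0.18 and -0.78 ± 0.18. Ptpn6 and the NF-kB subunit Rela rose, by 0.45 ± 0.10 and 0.47 ± 0.15; both were negative with positive controls alone, and Rela did not pass without P14 samples 4 and 5 (0.36, edgeR adjusted p = 0.0625) or without Polr1b among the reference genes (0.35). Tyrobp, the adaptor of CLEC5A, was 2911 ± 909 and 2991 ± 329 scaled counts (0.04 ± 0.19), and Syk was 7416 ± 937 and 7265 ± 638 (-0.03 ± 0.11); neither passed. The sign of Tyrobp changed in 7 of 28 alternatives, with -0.21 without P14 samples 4 and 5 and -0.78 with positive controls alone; its difference from Fcer1g was not tested.

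Genes that such receptors are known to induce were read as a further list. Of its 9 measured genes 6 rose, 0 fell and 3 did not pass, with a median log2 fold change of 0.54. Over all 366 genes 16.7% rose and the median was 0.0026. Beside Tnf, Socs3 and Nfkbiz, the genes of the list that rose were Ccl4, Il1b and Il23a. Ccl4, a chemokine also called MIP-1 beta, rose from 869.5 ± 478 to 1813 ± 706 scaled counts (1.06 ± 0.32, edgeR adjusted p = 0.0206), a call lost without P28 sample 118 (0.85, edgeR adjusted p = 0.0528). Il1b, the inflammatory cytokine, rose from 69.9 ± 13.4 to 103 ± 13.7 (0.54 ± 0.15, edgeR adjusted p = 0.0121) and was at -0.22 with positive controls alone. Il23a, a subunit of IL-23, rose from 23.8 ± 7.14 to 34.9 ± 4.11 scaled counts (0.51 ± 0.18, edgeR adjusted p = 0.0462), near background, and its call was lost in 17 of 27 alternatives, 10 of which left out a single sample. On positive controls alone none of the 9 was called higher and 1 was called lower.

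**Figure D4:**
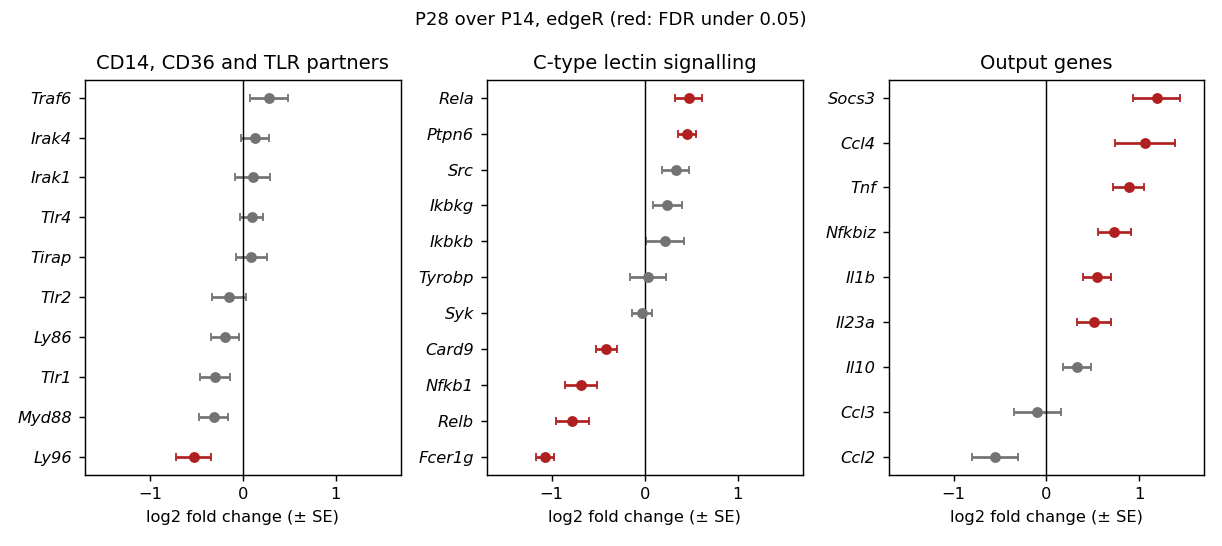
Log2 fold change of P28 over P14 with its SE from edgeR for the measured genes of 3 lists: Toll-like receptor partners of CD14 and CD36 (left, 10 genes), C-type lectin signalling (middle, 11 genes) and output genes (right, 9 genes); red points passed an FDR of 0.05. Of the left list only Ly96 passed, the middle list held 2 rises and 4 falls, and the right list held 6 rises. Rela, Ptpn6, Il1b and Il23a were below 0 with positive controls alone, where the median of all genes was -0.74.

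Related receptors outside the set were few on the panel. Of 10 further C-type lectin genes, 3 were measured: Klrd1 rose, Klrk1 fell and Klrc1 did not pass (-0.21 ± 0.28). Klrk1 was above background in 5 P14 samples and 0 P28 samples, and Klrd1 in 2 and 6, so each counted as measured mainly through the age where it was higher. Clec4a4, the lectin of the list nearest in kind to Clec4e, exceeded the lane background in 3 of the P14 samples and in 0 of the P28 samples and was not tested. Of 4 measured genes listed as further scavenger and apoptotic cell receptors Trem2 and Cd5 rose. Cd6, also near background (-0.12 ± 0.18), and Icam1 (0.14 ± 0.10) did not pass. Icam1 encodes an adhesion molecule and is no scavenger receptor, and Cd5 and Cd6 are in the T cell list too. Trem2 was negative with positive controls alone, and the call of Cd5 was lost there.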

How the data were processed

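Per the labels, each sample gave 2 ng of RNA, whose cDNA passed through 5 PCR rounds before capture on the nCounter immune panel for mouse. Raw counts per probe are whole numbers that the authors deposited unscaled; the sources used here do not name the counting software. A second deposited table holds values scaled by the authors to positive controls and reference genes (used as a score), with the authors' ratio (fold) and p-value per gene, per the file headers.

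A gene was measured when its raw count exceeded its lane's negative-probe mean plus 2 SD in at least 40% of 12 samples (366 of 545 genes). These were tested with edgeR 4.0.16 (R 4.3.3, quasi-likelihood) on raw counts, scaled to the geometric mean of Alas1, Gapdh, Oaz1, Polr1b, Sdha and Tbp, with Benjamini-Hochberg adjustment over all 366 at 0.05. Fold changes are log2, P28 over P14, with SE. DESeq2 1.42.0, limma 3.58.1 on log2 values with a pseudocount of 1 or 10, other scalings and filters, and each sample left out were alternatives. The fits were tested on simulated data. Members, lists, tests and the omission of P14 samples 4 and 5 were chosen with earlier results of these data known. Named genes are the set, up to 4 called genes per list and the 2 nearest profiles, of which 1 is not reported here. All 7 genes matched RefSeq by accession under the same symbol. Per-sample columns matching no sample numbered 0. Samples are separate animals, so the spread is between animals.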

Additional observations from a re-analysis of the deposited data

Results flagged for a closer look

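In 2 of 14 groups of 6 samples (7 genes at 2 ages), 1 sample stood far from the other 5; chance gives such a gap in about 1 in 20 groups. Cd36 was at 38.8 scaled counts in P14 sample 81, against 20.7 to 24.8 in the other P14 samples. Marco was at 24.7 scaled counts in P14 sample 5, against 7.82 to 13.5 in the others; that value is 10 raw counts, under the lane background of 12.9, in the sample with the lowest total.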

How the results depend on the processing

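No paired analysis was possible because the ages share no sample numbers. The number of genes called between the ages, 112, was 78 to 158 over the other scalings, filters, thresholds and tools and without P14 samples 4 and 5, and 102 to 121 with single samples left out. Without P14 samples 4 and 5 and with positive controls alone, added after seeing the data, it was 335. The number of receptor genes called higher at P28 was 0 under the other scalings, filters, thresholds and tools. It was 1 (Clec5a) without P14 sample 5, so it ran from 0 to 1 with single samples left out, and 1 without P14 samples 4 and 5. It was also 1 without those samples with total counts or with all 14 reference genes. The number called lower was 0 under those settings and 2 (Cd14 and Cd36) without P14 samples 4 and 5 with positive controls alone. The log2 fold change of Cd14 (0.10) turned to -0.026 without Polr1b, -0.027 with total counts, -0.71 with positive controls alone and -0.14 without P14 samples 4 and 5; without those samples it was -0.23 with total counts, -1.12 with positive controls alone and -0.0096 with all 14 reference genes. With single samples left out it ran from -0.015 to 0.20. Cd36 (0.20) turned to -0.53 with positive controls alone, and to -0.84 on that scale without P14 samples 4 and 5. Clec5a (0.34) turned to -0.24 with positive controls alone and to -0.32 on that scale without those samples. The causes were not tested. Requiring presence in all 12 samples left Cd36 without a value. The presence rule at mean plus 1 SD, also added, tested 416 genes and called 0 receptor genes. Counts of Cd36, Cd163, Marco, Msr1 and Clec4e lay near or under background, which limits what they can show.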

Other observations

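Genes that mark microglia of early postnatal life and white matter, the group in which Clec7a is usually named, were read without the set. Of 7 measured genes 4 rose (Itgax, Ccl6, Trem2 and Ccl4), 0 fell and 3 did not pass. The median log2 fold change of the 7 was 0.71, against 0.0026 for all 366 genes, of which 16.7% rose. The 4 that rose are counted in other lists too. Itgax is in the dendritic cell list, Ccl6 in that of border macrophages, Trem2 in those of microglia and scavenger receptors, and Ccl4 among the output genes. With positive controls alone 2 of the 7 passed as higher and the median was -0.07.

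Markers of other cells were counted in the same edgeR fit, in which 16.7% of all 366 genes rose and 13.9% fell. Of 7 measured genes of the T cell list 2 rose and 2 fell; 1 of the 7, Cd3eap, encodes a subunit of RNA polymerase I and marks no T cells. Of 6 B cell genes 1 rose and 1 fell, of 5 NK cell genes 1 rose and 2 fell, and of 4 neutrophil genes 0 rose and 1 fell. Of 4 dendritic cell genes 2 rose and 0 fell, of 4 endothelial and mural genes 2 rose and 1 fell, and of 4 genes of neurons, astrocytes and oligodendrocytes 2 rose and 1 fell. Several of these genes counted as measured only through 1 age: Cxcr2, Klrk1, Gzma and Cx3cl1, which fell, were above background in 0 P28 samples, and Cd96, which rose, in 0 P14 samples. Some of the counts moved with the scaling. Of the dendritic cell genes 4 rose with the authors' factors and 1 with positive controls alone. With total counts 1 endothelial and mural gene rose and 2 fell.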
